A study of Mus musculus with 8 samples.

Results

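Elastic fibres and the pericellular matrix were followed here through 10 genes: the fibrillins Fbn1 and Fbn2, the microfibril protein Mfap5, elastin (Eln), the fibulin Fbln2, fibronectin (Fn1), periostin (Postn) and the lysyl oxidases Lox, Loxl1 and Loxl2. They were chosen by name, though with earlier results of these data known. All 10 of 10 were found among the 30302 genes that the deposited tables hold in common. RNA sequencing was carried out on 8 wild-type primary cultures labelled as microglia, the macrophages of brain tissue, raised from the striatum of newborn C57/BL6 pups and kept for 15 days. All 8 had been activated for 48 h with 0.01% LPS and 0.002% IFN-γ, a bacterial and a cytokine stimulus, the latter described in the methods of the study as human protein. At 24, 32 and 40 h of activation, 4 cultures received SCH 58261, an antagonist of the adenosine A2A receptor (A2A antagonist group), and 4 received SCH 58261 with 200 nM of 2-Cl-IB-MECA, an agonist of the adenosine A3 receptor (dual group). The labels give the time as day 3 for every library. These groups follow the sample titles. GEO's treatment field goes against the titles, since it gives 2-Cl-IB-MECA to cultures whose titles name only SCH 58261 and omits it where the title has both ligands, so the direction of each difference below rests on the titles. The study used 4 pregnant animals, and its methods and a figure legend differ on the number of replicates of ligand-treated cells. Nothing states that the libraries of a group came from separate animals, and p-values therefore measure the spread between these libraries, which may be technical.

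Microfibrils are long bead-like filaments built from fibrillins, to which microfibril-associated proteins such as MFAP5 bind. They serve as the scaffold on which soluble elastin is laid down, with fibulins as adaptors, and lysyl oxidases then join lysine side chains of elastin and collagen into permanent crosslinks. Fibronectin fibrils are assembled by cells through integrins and organise the early matrix, in which periostin links fibronectin to collagen. In the brain these proteins belong mostly to the meninges, vessel walls and perivascular fibroblasts, and fibronectin is also a matrix signal for glia.

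Total counts ranged from 38427491 to 45878639 per library with the A2A antagonist and from 32630602 to 45544451 in the dual group, the shallowest being dual replicate 1. By RNA, the cultures were not pure by their defining markers. The study reported high purity by labelling with antibodies to CD11b, which is a measure of protein on cells and not of RNA. The microglial markers C1qa and Csf1r were high, at a mean of 419.6 and a range of 42.9 to 49.6 FPKM (fragments per kilobase of gene length and per 1000000 counted). P2ry12 was low at a mean of 0.715 FPKM, and the astrocyte gene Gfap reached a mean of 389.8 FPKM. The 10 astrocyte markers summed to 1095 to 1149 FPKM with the A2A antagonist and 1125 to 1189 FPKM in the dual group. The 7 oligodendrocyte markers summed to 105 to 108 and 97.3 to 106 FPKM. All 10 fibroblast markers, such as Col1a1 and Dcn, passed the low-count filter, with a summed level of 306 to 340 FPKM with the A2A antagonist and 305 to 380 FPKM in the dual group. The mural markers summed to 86.3 to 95.05 and 87.3 to 98.9 FPKM (Des under 10 counts) and the endothelial markers to 9.24 to 11.9 and 9.63 to 12.2 FPKM (Cldn5 under 10 counts). A few genes carried most of each sum. Acta2, Cnn1 and Pdgfrb had means of 49.8, 14.9 and 14.3 FPKM, against 0.157 for Rgs5, 0.0599 for Myh11 and 0.0533 for Kcnj8. Among the endothelial markers Cdh5 had a mean of 8.19 FPKM, against 0.252 for Pecam1, 0.169 for Vwf and 0.0244 for Emcn. The 10 microglial markers summed to 601 to 676 FPKM with the A2A antagonist and 554 to 591 FPKM in the dual group, without overlap (two-sided exact permutation test, p = 0.0286, the smallest that 4 against 4 libraries allow). C1qa made up most of this sum and was the 1 called gene of the list, while 5 of the 10 had a fold change above 0 and the median was 0.016 on the log2 scale. In such bulk samples, fewer cells of a type and less RNA per cell cannot be told apart.

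Comparing the groups addresses whether adding the A3 receptor agonist to the A2A receptor antagonist altered these transcripts. None of the 10 genes passed the test, and every difference was small beside the spread of the libraries or did not survive the adjustment over all genes. With edgeR's quasi-likelihood test on raw counts and the Benjamini-Hochberg adjustment over all 18756 genes tested, 0 of the 10 had an adjusted p under 0.05, against 39 genes called over the whole table (0.208%). At an unadjusted p under 0.05 stood 2 of the 10, Fn1 and Fbn1, both higher in the dual group, beside 12.8% of all genes in either direction and 5.98% in that direction. DESeq2 called none of them either, with 2 left without an adjusted p, while it called 381 genes over the whole table. Without the low-count filter edgeR called 1 of the 10, Fn1, among 366 genes called over the whole table. Levels in counts per 1000000 counts of the library (CPM, scaled with TMM factors) overlapped between the groups for all 10 genes, while 7.42% of all genes tested did not overlap. The fold change was above 0 for 7 genes and below 0 for 3, with a median of 0.12 on the log2 scale, beside 0.0038 over all genes tested.

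**Figure D1:**
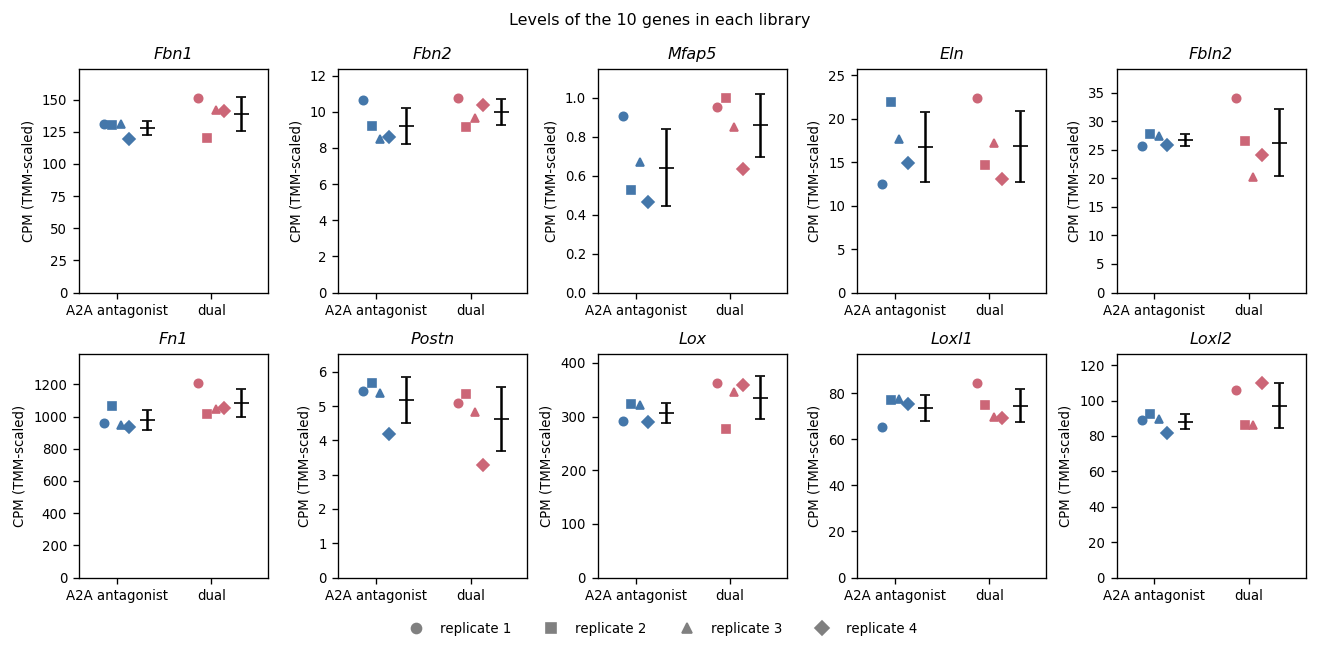
Levels of the 10 genes in CPM (linear axes from 0) in the 4 A2A antagonist libraries (blue) and the 4 dual libraries (red), with symbols for replicate numbers and black bars for mean ± SD (n = 4). In every panel the points of the groups overlap, and dual replicate 1 is the highest point for 7 of the 10 genes.

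The order of the levels was steep. The deposited FPKM divide by gene length, which can count the exons of all transcripts of a gene (8702 bases for Postn, over 9 transcripts). The order between genes is therefore approximate. In these FPKM, Fn1 came first at 83.0 ± 5.38 with the A2A antagonist and 91.9 ± 7.27 in the dual group (mean ± SD, n = 4). Lox followed at 63.3 ± 4.01 and 69.2 ± 8.36 FPKM, ahead of Loxl1 at 22.2 ± 1.75 and 22.4 ± 2.12 FPKM. Eln, whose protein they crosslink along with collagen, was listed lower, at 2.06 ± 0.501 FPKM in both groups. The collagen transcripts Col3a1, Col1a1 and Col1a2 were not low, with means of 77.6, 58.3 and 53.6 FPKM over the 8 libraries. Between Loxl1 and Eln lay Loxl2 (16.2 and 17.8 FPKM), Fbn1 (10.5 and 11.4 FPKM) and Fbln2 (4.16 and 4.09 FPKM). Fbn2 (0.875 and 0.945 FPKM), Postn (0.590 and 0.528 FPKM) and Mfap5 (0.178 and 0.237 FPKM) closed the list. Loxl1 and Loxl2 were the only neighbours in this order whose ranges over the 8 libraries overlapped. Together the 10 genes took 0.162% ± 0.00852 of all counts with the A2A antagonist and 0.179% ± 0.0146 in the dual group (mean ± SD, n = 4 each). No test of this sum is given, since the genes were chosen with earlier results of these data known. Fn1 alone made up 59.8% and 60.6% of these counts, so the sum mostly follows Fn1.

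Fbn1, which encodes the main fibrillin of microfibrils, lies on chromosome 2 from 125300594 to 125507993 (GRCm38, minus strand). Fbn1 stood at 131, 130.0, 131 and 119 CPM in A2A antagonist replicates 1 to 4 and at 151, 121, 142 and 142 CPM in dual replicates 1 to 4. The dual libraries were above all the others except replicate 2, which lay within the range of the antagonist group. The log2 fold change, dual over A2A antagonist here and throughout, was 0.12 with an SE of 0.054 (95% interval 0.0059 to 0.23, unadjusted p = 0.0402, edgeR adjusted p = 0.358). With 4587 to 6524 counts per library, counting error was 1.35% of the level, whereas the libraries varied by 4.51% (coefficient of variation) with the A2A antagonist and 9.37% in the dual group. The means, 128 ± 5.76 and 139 ± 13.0 CPM, differed by 10.96 CPM (exact permutation p = 0.143, n = 4 each). With 1 library left out, this difference ran from 6.82 CPM without dual replicate 1 (exact p = 0.286) to 17.1 CPM without dual replicate 2 (exact p = 0.0286). The latter p is the smallest possible there, and follows from leaving out the only dual library not above the antagonist group. Fbn1 shares 2442 exonic bases with Gm9913 on the opposite strand, which was listed at 0 to 2 counts.

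Fbn2, the fibrillin known chiefly from embryonic tissue, lies on chromosome 18 and was far scarcer, with 348 to 459 counts per library. Fbn2 stood at 10.7, 9.19, 8.47 and 8.63 CPM in A2A antagonist replicates 1 to 4 and at 10.8, 9.15, 9.67 and 10.4 CPM in dual replicates 1 to 4. Replicate 1 was the highest of both groups, and the groups overlapped over most of their range. The log2 fold change was 0.11 with an SE of 0.084 (95% interval -0.064 to 0.29, edgeR adjusted p = 0.621), with 0.074 without A2A antagonist replicate 3 and 0.18 without A2A antagonist replicate 1. The balance of the fibrillins did not differ beyond the spread of the libraries: the ratio of Fbn2 to Fbn1 counts was 0.0722 ± 0.00679 with the A2A antagonist and 0.0720 ± 0.00330 in the dual group (two-sided exact permutation test on log2 ratios, p = 1, n = 4 each). Its extremes both fell in the antagonist group, with 0.0646 in replicate 3 and 0.0811 in replicate 1.

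Mfap5, on chromosome 6 from 122505845 to 122529290 (plus strand), encodes a glycoprotein that binds fibrillin and was the least abundant of the 10 genes. Mfap5 stood at 0.907, 0.528, 0.670 and 0.462 CPM in A2A antagonist replicates 1 to 4 and at 0.950, 0.999, 0.850 and 0.632 CPM in dual replicates 1 to 4. Most dual libraries were above most antagonist libraries, but antagonist replicate 1 and dual replicate 4 crossed over. Mfap5 had the widest interval, a log2 fold change of 0.42 with an SE of 0.26 (95% interval -0.13 to 0.97, edgeR adjusted p = 0.535). It was 0.29 without A2A antagonist replicate 4 and 0.62 without A2A antagonist replicate 1. At 21 to 39 counts per library, counting error alone was 18.4% of the level, and the libraries varied by 30.7% with the A2A antagonist and 19.0% in the dual group. It was the only gene of the 10 whose 95% interval reached beyond a 1.5-fold difference (0.58 on the log2 scale), so at this depth a 1.5-fold difference lay within the error.

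Eln, on chromosome 5 from 134702593 to 134747323 (minus strand), encodes the soluble precursor of the elastic core. Eln stood at 12.5, 22.0, 17.6 and 14.9 CPM in A2A antagonist replicates 1 to 4 and at 22.4, 14.6, 17.2 and 13.1 CPM in dual replicates 1 to 4. Each group had a library near 22 CPM and another near 13 CPM, and the ranges covered each other almost fully. The means were 16.8 ± 4.06 and 16.8 ± 4.08 CPM, and the log2 fold change was -0.0079 with an SE of 0.15 (95% interval -0.32 to 0.30, edgeR adjusted p = 0.989). Its sign rested on single libraries, with -0.17 without dual replicate 1 and 0.15 without A2A antagonist replicate 2. The spread among libraries, 24.2% and 24.3%, was well above the 3.86% that counting gives at 483 to 1000 counts. The median gene with at least 1 CPM varied by 4.85% with the A2A antagonist and 5.74% in the dual group. Eln shares 267 exonic bases with the antisense gene Gm30003 (0 to 5 counts).

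Fbln2, an adaptor between elastin, fibrillin and basement membrane, lies on chromosome 6 from 91212455 to 91272540 (plus strand). Fbln2 stood at 25.6, 27.8, 27.5 and 25.9 CPM in A2A antagonist replicates 1 to 4 and at 34.1, 26.6, 20.2 and 24.2 CPM in dual replicates 1 to 4. The antagonist libraries lay close together, and the dual libraries reached both above and below them. Its variation was 4.13% in the first group and 22.2% in the second, with counting error at 3.04%, and the difference in spread was not tested. The log2 fold change was -0.033 with an SE of 0.10 (95% interval -0.25 to 0.18, edgeR adjusted p = 0.932). It turned to 0.074 without dual replicate 3 and was -0.18 without dual replicate 1.

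**Figure D2:**
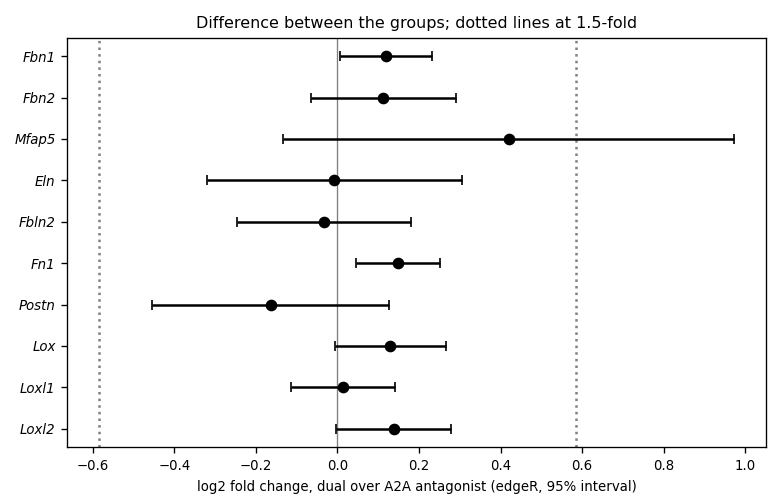
Log2 fold change of the dual over the A2A antagonist group (x axis) for each of the 10 genes, with 95% intervals from edgeR and dotted lines at a 1.5-fold difference. The intervals of 9 genes lie inside the dotted lines, Mfap5 reaches past the upper line, and only those of Fn1 and Fbn1 leave out 0 before adjustment over all genes.

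Fn1, on chromosome 1 from 71585520 to 71653200 (minus strand), encodes the fibronectin subunit and was measured most precisely, with 36987 to 48590 counts per library and a counting error of 0.487%. Fn1 stood at 959, 1068, 945 and 933 CPM in A2A antagonist replicates 1 to 4 and at 1208, 1017, 1048 and 1055 CPM in dual replicates 1 to 4. Antagonist replicate 2 exceeded every dual library but replicate 1, while the other antagonist libraries were below all dual libraries. The means were 976 ± 62.3 and 1082 ± 85.6 CPM, a log2 fold change of 0.15 with an SE of 0.050 (95% interval 0.044 to 0.25), which was 0.091 without dual replicate 1 and 0.19 without A2A antagonist replicate 2. Fn1 had the smallest unadjusted p of the 10 genes, 0.00775, and an edgeR adjusted p of 0.197. Without the low-count filter, which changes the set of genes over which p-values are adjusted and the estimate of the spread, the edgeR adjusted p was 0.0254 and the log2 fold change 0.14. The exact permutation test of its means gave p = 0.114 (n = 4 each). Fn1 shares 292 exonic bases with the antisense gene Apol7d, listed at 2 to 14 counts.

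Postn, on chromosome 3 from 54361109 to 54391037 (plus strand), encodes a matricellular protein that tethers fibronectin, collagen and lysyl oxidase activators. Postn stood at 5.44, 5.67, 5.38 and 4.18 CPM in A2A antagonist replicates 1 to 4 and at 5.09, 5.36, 4.81 and 3.27 CPM in dual replicates 1 to 4. Replicate 4 was the lowest in both groups, and the remaining libraries lay between 4.81 and 5.67 CPM. Postn had the most negative fold change of the 10 genes, -0.16 with an SE of 0.14 (95% interval -0.45 to 0.13, edgeR adjusted p = 0.671), from 145 to 258 counts per library. It was -0.024 without dual replicate 4 and -0.26 without A2A antagonist replicate 4.

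Lox, the founding lysyl oxidase, lies on chromosome 18 and was the second most abundant of the 10 genes per length. Lox stood at 291, 324, 322 and 289 CPM in A2A antagonist replicates 1 to 4 and at 362, 276, 345 and 358 CPM in dual replicates 1 to 4. As with Fbn1, dual replicates 1, 3 and 4 were above every antagonist library, and dual replicate 2 was the lowest library of all. The log2 fold change was 0.13 with an SE of 0.065 (95% interval -0.0061 to 0.27, unadjusted p = 0.0601, edgeR adjusted p = 0.416). The means, 306 ± 19.0 and 335 ± 40.3 CPM, differed by 28.8 CPM (exact permutation p = 0.229, n = 4 each). That difference was 19.7 CPM without dual replicate 1 and 21.3 CPM without dual replicate 4 (exact p = 0.429 for each), and 48.6 CPM without dual replicate 2 (exact p = 0.0286). Here too the last p is the smallest possible and follows from which library was left out.

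Loxl1, the family member tied most closely to elastin, lies on chromosome 9 from 58287738 to 58313186 (minus strand). Loxl1 stood at 65.2, 76.9, 77.3 and 75.4 CPM in A2A antagonist replicates 1 to 4 and at 84.4, 74.98, 69.7 and 69.0 CPM in dual replicates 1 to 4. The lowest library was in the antagonist group and the highest in the dual group, with the others intermixed. Its log2 fold change was 0.013 with an SE of 0.061 (95% interval -0.11 to 0.14, edgeR adjusted p = 0.959), with -0.051 without dual replicate 1 and 0.047 without dual replicate 4.

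Loxl2, which acts largely on basement membrane collagen, lies on chromosome 14 from 69609068 to 69695834 (plus strand). Loxl2 stood at 89.0, 92.1, 89.6 and 81.9 CPM in A2A antagonist replicates 1 to 4 and at 106, 86.0, 86.2 and 109.9 CPM in dual replicates 1 to 4. Dual replicates 1 and 4 stood above all other libraries, whereas dual replicates 2 and 3 fell among the antagonist libraries. The log2 fold change was 0.14 with an SE of 0.067 (95% interval -0.0027 to 0.28, unadjusted p = 0.0541, edgeR adjusted p = 0.402). Leaving out dual replicate 4 gave 0.070 and leaving out dual replicate 2 gave 0.19. Loxl2 shares 301 exonic bases with the antisense gene Gm27177 (0 to 5 counts).

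The makeup of the lysyl oxidase family was compared within each library, as the percent of the summed counts per kilobase of its 5 genes. Lox took 57.0% ± 0.890 with the A2A antagonist and 58.0% ± 2.90 in the dual group (two-sided exact permutation test, p = 0.571, n = 4 each). Loxl1 took 20.01% ± 1.007 and 18.9% ± 2.03 (exact p = 0.371), and Loxl2 took 14.6% ± 0.684 and 15.0% ± 1.16 (exact p = 0.657). Lox was thus the leading transcript of the family in each of the 8 libraries, from 54.2% in dual replicate 2 to 60.7% in dual replicate 3. The paralogues outside the 10 genes were smaller: Loxl3 at 7.85% and 7.67%, and Loxl4 at 0.480% and 0.445%. None of these 5 shares differed between the groups beyond the spread of the libraries.

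**Figure D3:**
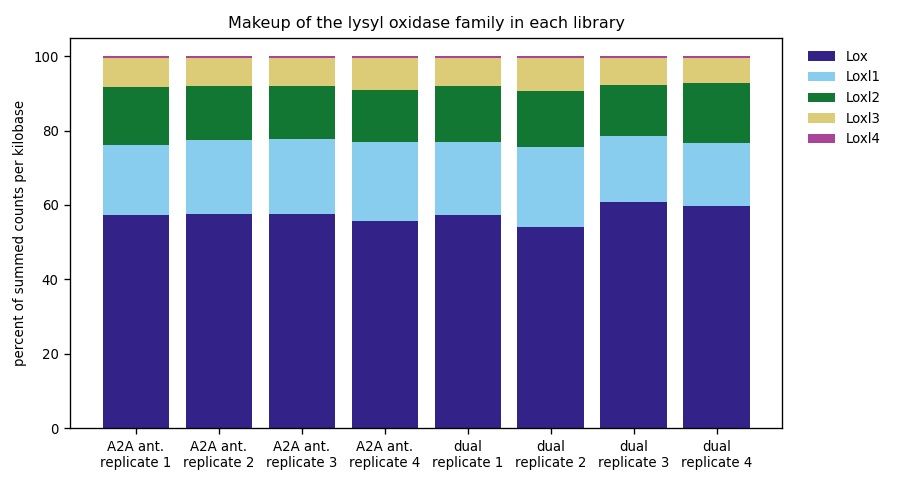
Share of each lysyl oxidase gene (stacked, in percent of the summed counts per kilobase of Lox, Loxl1, Loxl2, Loxl3 and Loxl4) in each of the 8 libraries. Lox makes up 54.2% to 60.7% of every bar, and Loxl4 is the thin band at the top.

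The 10 genes varied together only in part. Of the 45 pairs, 36 had a positive Pearson correlation of log2 CPM over the 8 libraries, with r from -0.44 to 0.91 and a median of 0.36. The same values over pairs of all genes were not computed, so they do not set these 10 genes apart. Many of the signs of the 45 pairs depended on 1 library. Without dual replicate 1, many positive pairs turned negative, such as Fbn1 with Fbln2 (0.11 to -0.65) and Fn1 with Fbln2 (0.42 to -0.34). Others stayed positive, such as Fbn1 with Lox (0.89) and Eln with Loxl1 (0.69). No pair passed an adjustment over the 45, and 7 had an unadjusted exact permutation p under 0.05. The closest pair was Fbn1 and Lox, with r = 0.91 (exact permutation p = 0.00285, adjusted p = 0.128) and Spearman's rho = 0.86 (exact permutation p = 0.0107, adjusted p = 0.161). Without the 2 libraries farthest from the median of Fbn1, r was 0.90, and after removal of the group means it was 0.89. Eln and Loxl1, the substrate and an enzyme that acts on it, had r = 0.80 (exact permutation p = 0.0173, adjusted p = 0.257) and rho = 0.90 (exact permutation p = 0.00456, adjusted p = 0.161), with r = 0.65 without the 2 farthest libraries. The libraries themselves stood apart: dual replicate 1 held the highest level of 7 of the 10 genes, and A2A antagonist replicate 4 the lowest of 4.

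**Figure D4:**
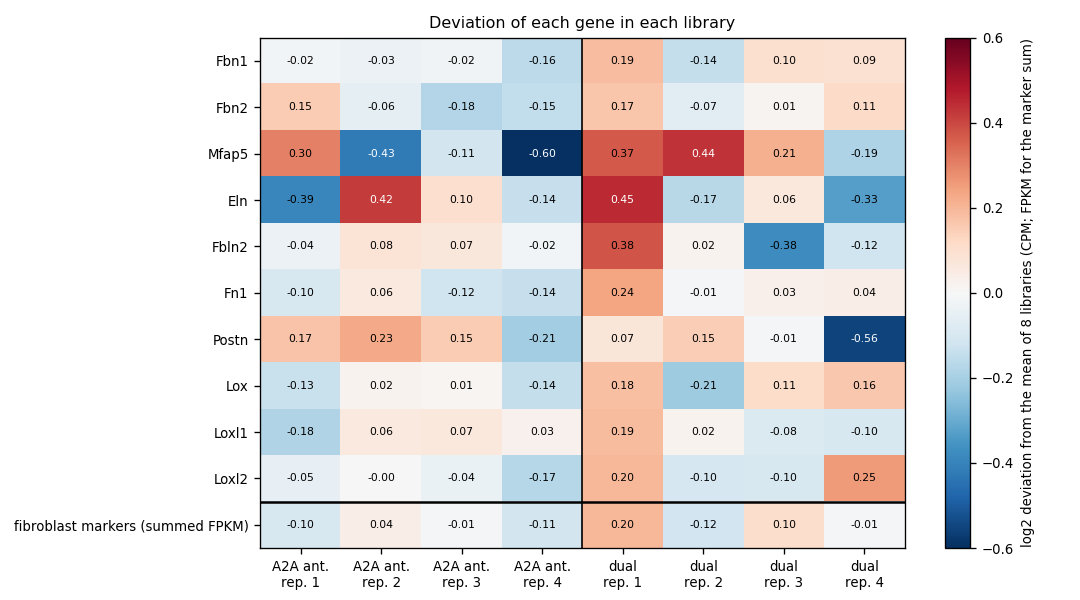
Log2 deviation of each gene (rows) from its mean over the 8 libraries (columns), in CPM, with the summed FPKM of the 10 fibroblast markers in the bottom row and the value printed in each cell. Dual replicate 1 is above the mean in all rows, and Fbn1 and Lox share the sign of their deviation with each other in 6 of the 8 libraries.

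The summed level of the fibroblast markers moved with several of these genes. Matrix genes carried most of the sum: Dcn, Col3a1, Col1a1 and Col1a2 had means of 95.3, 77.6, 58.3 and 53.6 FPKM. Pdgfra, Thy1 and Twist1 had means of 19.1, 16.8 and 7.78 FPKM, and Lum, Col6a3 and Fap only 2.63, 0.292 and 0.275 FPKM. The sum therefore mostly follows collagen and decorin transcripts, and a link to the number of fibroblasts was not tested. The summed fibroblast markers were highest in dual replicate 1 (380 FPKM) and lowest in dual replicate 2 (305 FPKM), the libraries at the extremes for Lox. Over the 8 libraries, this sum had r = 0.87 with Fbn1 (exact permutation p = 0.00518, adjusted over the 10 genes 0.0277), 0.86 with Lox (exact permutation p = 0.0066, adjusted 0.0277) and 0.83 with Fn1 (exact permutation p = 0.00831, adjusted 0.0277). Spearman's rho was 0.76, 0.86 and 0.67, with adjusted p of 0.153, 0.107 and 0.208 by the same permutation test. Without the 2 libraries farthest from the median of the marker sum, r was 0.64 for Fbn1, 0.82 for Lox and 0.57 for Fn1, and after removal of the group means it was 0.83, 0.83 and 0.81. For the other 7 genes r ran from 0.083 for Postn to 0.76 for Eln, and none of their adjusted p was under 0.05. The fibroblast sum itself did not separate the groups (exact permutation p = 0.371, n = 4 each), 0 of its 10 genes were called, and its part in the values of the 10 genes was not tested.

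Among protein-coding genes whose mean log2 CPM was 3 or more, those whose pattern over the 8 libraries was most like each gene were listed by Pearson's r, as a description. For Fbn1 these were Sulf1 (0.96) and Tgfbi (0.96), and for Lox they were Mmp16 (0.98) and Tgfbi (0.97). Eln was closest to P3h1, a collagen prolyl hydroxylase (0.97), and Tepsin (0.97), and Fbln2 to Ctsl (0.96) and Chmp7 (0.95). Fn1 was nearest to Dchs1 (0.96) and Tsc22d2 (0.94), Loxl1 to Gm13889 (0.95) and Creld1 (0.95), and Loxl2 to Pcdhgb6 (0.97) and Tbc1d8b (0.95). Fbn2 paired with Tti1 (0.96) and Dlgap1 (0.95), and Postn with Bcar1 (0.97) and Bak1 (0.97). These were the highest of 10707 values each, over 8 points, and carry no test.

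The wider pathway was read from 5 lists, none of which held a called gene. Over all genes tested, 51.5% had a fold change above 0, and 5.98% were higher in the dual group at an unadjusted p under 0.05. Genes of the lists named for such a p were chosen after their values were seen. Of 18 microfibril and elastic fibre partners 15 were tested and 13 had a fold change above 0, with a median of 0.093 on the log2 scale. Per length, its most abundant genes were Efemp2, a fibulin needed for elastic fibre assembly, at 142 ± 5.75 and 138 ± 6.16 CPM (edgeR adjusted p = 0.722), and Ltbp3, a binding protein of latent TGF-β, at 304 ± 9.37 and 321 ± 43.96 CPM (edgeR adjusted p = 0.680). At an unadjusted p under 0.05, and higher in the dual group, were 3 of the 15, Efemp1, Emilin2 and Ltbp2. Of 15 crosslinking and maturation enzymes 14 were tested, 9 with a fold change above 0 (median 0.035) and 1, Plod2, at an unadjusted p under 0.05. Here Tgm2, a transglutaminase that acts on fibronectin and fibrillin, was at 284 ± 8.90 and 281 ± 22.5 CPM, and P4ha1, a prolyl hydroxylase subunit, at 196 ± 5.51 and 195 ± 8.20 CPM.

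Of 10 fibronectin and microfibril receptors 9 were tested, 5 above and 4 below 0 (median 0.0037). Itgb1, the integrin subunit of the classical fibronectin receptor, was at 560 ± 24.0 and 575 ± 23.6 CPM, and the syndecan Sdc4 at 1025 ± 16.5 and 984 ± 31.7 CPM. Of 8 elastin-degrading proteases 6 were tested, 2 above and 4 below 0 (median -0.0093), with the cathepsins Ctss at 316 ± 11.7 and 303 ± 10.4 CPM and Ctsl at 519 ± 4.88 and 513 ± 20.003 CPM. The 2 above 0, Mmp9 (log2 fold change 0.34, edgeR adjusted p = 0.0651) and Mmp12 (0.13, edgeR adjusted p = 0.322), had an unadjusted p under 0.05. All 8 matricellular genes were tested and 6 were above 0 (median 0.072), 4 of them at an unadjusted p under 0.05 (Cyr61, Ctgf, Thbs1 and Thbs2). Sparc, a collagen chaperone, was at 2474 ± 81.4 and 2418 ± 93.5 CPM, and Cyr61, an integrin ligand, at 445 ± 86.5 and 535 ± 24.1 CPM (log2 fold change 0.27 with an SE of 0.088, edgeR adjusted p = 0.192).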

How the data were processed

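The authors counted paired-end reads per gene with featureCounts 1.5.0-p3 (submitters' notes, build mm10), after alignment with HISAT2 according to the methods of the study; whether strand was used is not given in the sources used here. The deposited values are raw counts, which were used for all tests, and FPKM, which the authors normalized by gene length and depth and which were used only for levels between genes and for marker sums. Deposited FPKM were 0.987 to 1.00 times the count per kilobase per 1000000 total counts. The tables also hold the authors' own comparisons (fold changes with p-values), which were not used, and 9 columns of control libraries outside this series, which were not used either. Libraries were grouped by sample title, which the count column names match. Tables were joined by gene identifier, and in 1 of them 25 symbols read as dates.

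Counts were filtered with filterByExpr (minimum count 10), scaled with TMM factors and fitted with edgeR 4.0.16 (quasi-likelihood F test, R 4.3.3) without covariates. Two-sided p-values were corrected over all 18756 genes tested (Benjamini-Hochberg). Genes with an adjusted p under 0.05 were called. CPM are counts per 1000000, TMM-scaled, and log2 CPM used a prior count of 2. Single values were compared over the 70 arrangements of 4 against 4 libraries. Libraries of a group differed by 3.80 to 9.43 times the chi-square per degree of freedom expected from counting, so none was a copy of another. Counting errors cover counting only. Over all genes, edgeR estimated a biological variation of 5.28%.

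The members and lists were chosen with earlier results of these data known. Named were the 10 members, the 2 most abundant genes per length of each pathway list and any called gene, and, for members with at least 100 counts a library on average, the 2 genes most like them. List genes at an unadjusted p under 0.05 were named outside this rule, after their values were seen. Positions are those of the deposited tables, which equal GENCODE M21 (GRCm38) for 8 of the 10 members, Fbn2 and Lox differing. Alternatives were DESeq2 1.42.0, no low-count filter, a block for replicate number and leaving out each library.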

Additional observations from a re-analysis of the deposited data

Results flagged for a closer look

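In groups of 4 libraries, 3 values lay far enough from the rest of their group to pass Dixon's test at the 95% level, which chance passes in about 1 of 20 groups. The test was run in both groups for every gene, share and ratio given above, so a few such values can be expected by chance alone. Fbn1 was at 119 CPM in A2A antagonist replicate 4, with the other libraries of that group at 130.0 to 131 CPM. Loxl1 was at 65.2 CPM in A2A antagonist replicate 1, with the others at 75.4 to 77.3 CPM. The share of Lox in its family was 55.7% in A2A antagonist replicate 4, with the others at 57.3% to 57.6%.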

How the results depend on the processing

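The number of genes called over the whole table moved from 39 to 366 without the low-count filter, 381 with DESeq2 and 0 to 172 when 1 library was left out (0 without A2A antagonist replicate 4 or dual replicate 3, 5 and 6 without A2A antagonist replicates 2 and 3, 172 without A2A antagonist replicate 1). Of the 10 genes, 1 was called without the filter, Fn1 (edgeR adjusted p = 0.0254, range over its alternatives 0.0254 to 0.456), and 0 with DESeq2, with the block or without any 1 library. Exact permutation tests of their levels passed for 0 to 2 genes, the 2 being Fbn1 and Lox without dual replicate 2. For both genes that library was the only dual library not above every antagonist library. Its removal therefore fixed the exact permutation p at the smallest possible value, 0.0286, and these 2 passes do not count as support for a difference. Of 120 refitted fold changes, 110 kept their direction and side of the threshold and 9 changed sign. Eln was 0.0015 on the log2 scale with DESeq2 and -0.17 to 0.15 without 1 library, Fbln2 -0.18 to 0.074 and Loxl1 -0.051 to 0.047. In CPM, the difference without 1 library ran from -1.80 to 1.80 for Eln, -3.02 to 1.61 for Fbln2 and -2.47 to 2.66 for Loxl1. The log2 ratio of Fbn2 to Fbn1 differed by -0.051 to 0.058 and the share of Loxl2 by -0.13 to 0.82 percentage points. The cause of these changes was not tested.

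Replicate numbers are shared by the groups in the titles, but same-numbered libraries did not deviate together (correlations -0.0529 to 0.0408). A fit with the replicate number as a block called 17 genes and none of the 10.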
